A study of Mus musculus with 4 samples.

Results

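Heat shock proteins and J-domain chaperones were followed in gastrocnemius muscle, the main calf muscle, as 73 genes of the 22252 gene names measured. They were chosen by symbol alone, as genes whose names begin with Hsp90, with Hspa, Hspb, Hspd, Hspe or Hsph and a digit, or with Dnaja, Dnajb or Dnajc and a digit. The symbols give 3 Hsp90 genes, 13 Hsp70 genes (Hspa), 1 Hsp110 gene (Hsph1), 3 mitochondrial chaperonin names (Hspd1 and Hspe1 among them), 8 small heat shock genes (Hspb) and 45 J-domain genes, of which 4 are of class A, 13 of class B and 28 of class C. A gene was tested, that is, entered into comparisons, if its expected count averaged at least 50 over the libraries. This held for 62 members and for 11272 genes in all.

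Molecular chaperones keep proteins folded. Hsp70 proteins bind unfolded stretches of their clients, J-domain proteins bring clients to Hsp70 and stimulate its ATPase, Hsp110 proteins exchange its nucleotide, Hsp90 completes the folding of receptors and kinases, and small heat shock proteins hold unfolding proteins without using ATP. The glucocorticoid receptor is itself a client of this machinery, and needs Hsp70 and Hsp90 with their co-chaperones to bind hormone. In skeletal muscle, small heat shock proteins are abundant and associate with the contractile and cytoskeletal lattice, and the heat shock factor Hsf1 drives many of the stress-inducible members.

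With these mice the study asked whether the glucocorticoid receptor (GR) of muscle fibers takes part in obesity and high insulin when no hormone is added. All mice were 7-week-old males on a C57BL/6J background, and all carried the floxed GR gene (Nr3c1) on both alleles, the controls included. The 4 groups were lean GRf/f (no Cre, Lep+/+), lean GRmKO (Cre+/-, Lep+/+), ob/ob GRf/f (no Cre, leptin-deficient Lep ob/ob) and ob/ob GRmKO (Cre+/-, Lep ob/ob), in which Cre driven in skeletal muscle fibers removes GR there but not in the other cells of the muscle, and no group of this series was given hormone. Each group was sequenced once, from the mixed RNA of 3 mice, so the groups have 1 value each, the spread between mice is unknown, and no test between groups was made.

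Values are expected counts scaled to a common library size (CPM) with TMM factors (trimmed mean of M-values, below "TMM CPM"), and differences are log2 ratios of 2 libraries on that scale. Intervals are exact 95% intervals of a ratio of 2 counts (Clopper-Pearson) and cover counting error only. A gene was called higher or lower if it differed at least 1.5-fold, and the share of all 11272 tested genes that passed the same rule stands beside each count of members. Libraries held 19897754 to 20959781 expected counts. A count of 3, set as the floor for an observed 0, corresponded to 0.139 to 0.154 TMM CPM. Nr3c1, the targeted gene, had 120 TMM CPM in lean GRf/f and 62.3 in lean GRmKO, and 106 in ob/ob GRf/f and 41.9 in ob/ob GRmKO. By the paper, exon 3 of the gene is floxed, so RNA of its other exons may remain in these counts. In whole muscle, fewer cells of a type and less RNA per cell cannot be told apart.

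One library stood apart before any comparison. Lean GRf/f held 4 spermatid genes, which muscle does not use, above the other libraries. Prm2, a protamine that packs sperm DNA, had 23.2 TMM CPM there and was at 0 in the other 3 libraries, Prm1 had 9.97 against at most 0.09, Tnp2 had 9.24 against at most 0.05, and Tnp1 had 4.43 against 0. Several members known from testis were highest in the same library. Dnajb3 had an expected count of 58.9 in lean GRf/f and of 4, 4 and 4.01 in the others. Hspb9 had 48.6, with 0, 1 and 2.01 elsewhere, and Dnajb8 had 32.9, with 0, 0 and 2. Dnajc5g and Dnajc5b were at 10 and 4.01 in lean GRf/f and at or below 2 in the rest. None of these 5 members entered a comparison. Dnajb13 and Dnajb7, also testis genes, did not stand out there. Testis also expresses several tested members, among them Hspa1l, Hspa2 and Hspa4l. Hspa1l was highest in ob/ob GRmKO, but Hspa2 and Hspa4l were highest in lean GRf/f, at 10.6 and 8.59 TMM CPM. In lean GRmKO, ob/ob GRf/f and ob/ob GRmKO, Hspa2 had 8.55, 9.35 and 7.39, and Hspa4l had 6.87, 6.96 and 7.86. The part of testis RNA in the lean GRf/f values of the tested members was not tested. The comparisons of ob/ob with lean mice in GRmKO and of GRmKO with GRf/f in ob/ob mice do not use the lean GRf/f library.

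**Figure D1:**
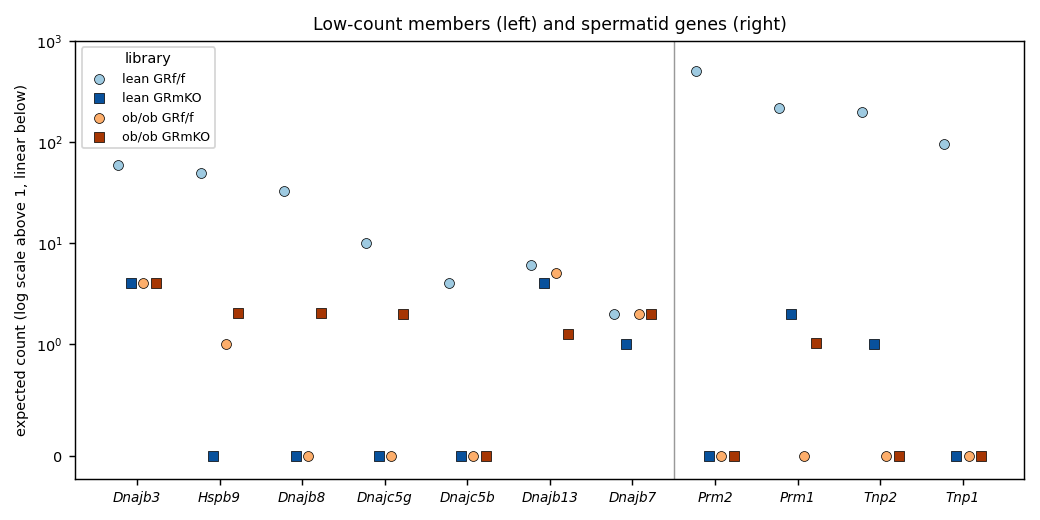
Expected counts of 7 members that were too low to be compared (left of the line) and of 4 spermatid genes (right), by library; the axis is logarithmic above 1 and linear below. Lean GRf/f lies above the other libraries for Dnajb3 (58.9), Hspb9 (48.6), Dnajb8 (32.9), Dnajc5g (10), Dnajc5b (4.01) and all 4 spermatid genes, while Dnajb13 and Dnajb7 were at 6.09 or below everywhere.

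Of the other members left out of comparisons, 5 are given here, and they were low in every library. Dnajb13, Dnajb7, Dnajc22 and Dnajc6 had expected counts of 0 to 6.09. Hspb11, a component of the transport machinery of cilia that is a small heat shock protein by name only, had 47.4 in lean GRf/f, 39.0 in lean GRmKO, 18.1 in ob/ob GRf/f and 40.2 in ob/ob GRmKO.

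The members took together 0.731% of all counts in lean GRf/f (exact 95% interval 0.727 to 0.735), 0.727% in lean GRmKO (0.724 to 0.731), 0.781% in ob/ob GRf/f (0.777 to 0.785) and 0.771% in ob/ob GRmKO (0.768 to 0.775). Both ob/ob libraries were above both lean libraries. On the TMM scale the sum was 7042 and 6759 in lean GRf/f and GRmKO, and 8136 and 8268 in ob/ob GRf/f and GRmKO. Without Hspb6 and Hspb7 the sums were 5945, 5673, 5910 and 6194 in the same order, and the ob/ob GRf/f library was no longer above both lean ones. Per kilobase of the transcript listed for each gene, the most abundant member was Hspb6, with a mean of 739 TMM CPM per kilobase over the libraries, followed by Hsp90ab1 (427), Hspa8 (415), Hspb1 (303), Hspb8 (267) and Hspb7 (221). Thus 4 of the 6 highest members per length were small heat shock genes.

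Levels varied little between libraries. In 46 of the 62 tested members (74.2%), the highest library was under 1.5 times the lowest, against 60.6% of all tested genes. Of the tested members, only Hspb7 and Hsph1 differed at least 2-fold between any 2 libraries, 3.23% of them against 14.7% of all tested genes. The lowest value lay in lean GRmKO for 25 members (40.3%) against 27.2% of all tested genes, and in lean GRf/f for 9 members (14.5%) against 21.7%.

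**Figure D2:**
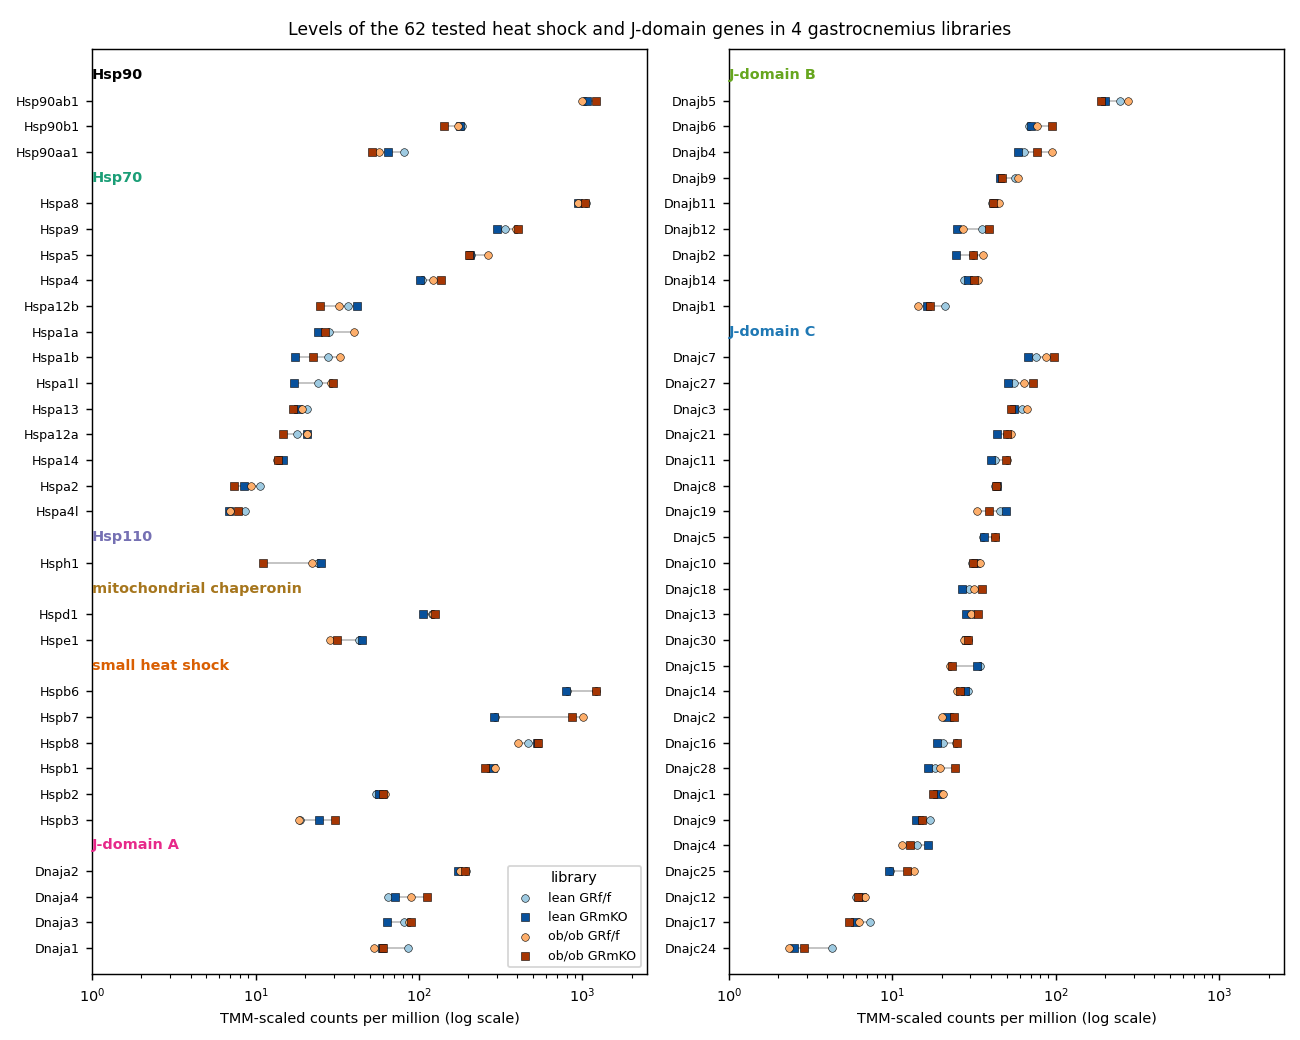
TMM CPM (log scale) of the 62 tested members in each of the 4 libraries, by class, with a line from the lowest to the highest library. Each point is 1 library of RNA from 3 mice; most members span a narrow range, while Hspb7 (290 to 1007) and Hsph1 (11.1 to 24.99) span at least 2-fold.

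The members that were at least 1.5-fold higher in ob/ob than in lean mice in both genotypes were the small heat shock genes Hspb7 and Hspb6. Hspb7, a small heat shock protein of heart and skeletal muscle, had 291 TMM CPM in lean GRf/f, 290 in lean GRmKO, 1007 in ob/ob GRf/f and 864 in ob/ob GRmKO. Both ob/ob libraries were thus far above both lean ones, and the lean libraries were alike. The log2 ratio of ob/ob to lean was 1.79 in GRf/f (counting interval 1.75 to 1.83, 3.46-fold) and 1.58 in GRmKO (1.54 to 1.62, 2.98-fold). As plain CPM the levels were 302, 312, 966 and 806. Hspb7 lies at chr4:141420779-141425311 (GRCm38, plus strand) and has 1 annotated coding transcript. It had the largest ratio between any libraries of the 62 tested members, and the 250 bases before its RefSeq start, chr4:141420529-141420778 on the plus strand, are shown for this reason, with the E-box motif CANNTG in capitals.
Hspb7: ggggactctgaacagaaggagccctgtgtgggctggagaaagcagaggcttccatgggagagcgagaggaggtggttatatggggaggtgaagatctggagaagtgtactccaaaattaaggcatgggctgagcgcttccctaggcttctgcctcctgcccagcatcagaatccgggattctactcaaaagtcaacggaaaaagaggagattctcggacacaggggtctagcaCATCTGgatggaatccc

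The E-box, bound by myogenic and other basic helix-loop-helix factors, is a short motif, and 72.3% of 32851 RefSeq promoters of the same window (250 bases before to 50 after the start) held it on either strand, against 34 of the 58 members with a promoter sequence (58.6%). The relaxed glucocorticoid response element GNACANNNTGTNC was in the window of 0 of the 58 members and in 0.475% of all promoters, and the MEF2 motif CTANNNNTAG in that of 3 members (Dnajb7, Dnajc1 and Hspb3, 5.17%) and in 3.69%. These matches describe letters in a window and not binding.

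Hspb6 (Hsp20), which associates with actin in muscle, had 805 TMM CPM in lean GRf/f, 797 in lean GRmKO, 1219 in ob/ob GRf/f and 1209 in ob/ob GRmKO. The 2 levels of each body type were nearly equal, and ob/ob was above lean by a log2 ratio of 0.60 in GRf/f (0.57 to 0.63) and 0.60 in GRmKO (0.57 to 0.63). This is 1.51-fold and 1.52-fold, just past the rule, and as plain CPM the log2 ratios were 0.48 and 0.39 and did not pass it. Hspb7 and Hspb6 were the members called higher in both genotypes, 2 of 62 (3.23%) against 3.74% of all tested genes, and none was called lower in both, against 3.75% of all tested genes.

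The other small heat shock genes were not called in ob/ob against lean mice. Hspb8, which works with the co-chaperone Bag3 in chaperone-assisted autophagy, had 466 TMM CPM in lean GRf/f, 530 in lean GRmKO, 405 in ob/ob GRf/f and 538 in ob/ob GRmKO, with GRmKO above GRf/f in both pairs (log2 ratios 0.19 and 0.41). Hspb1 (Hsp25) had 266, 285, 291 and 252 in the same order, and Hspb2 had 54.6, 56.9, 61.7 and 60.5. In Hspb1 and Hspb2 the highest library was at most 1.16 times the lowest, and Hspb2 was slightly higher in both ob/ob libraries (log2 ratios 0.18 and 0.09). Hspb3, restricted to muscle, had 18.7 in lean GRf/f, 24.6 in lean GRmKO, 18.5 in ob/ob GRf/f and 30.5 in ob/ob GRmKO. It was highest in ob/ob GRmKO, and the GRf/f libraries were alike.

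The class sum was 1907 TMM CPM in lean GRf/f, 1985 in lean GRmKO, 3003 in ob/ob GRf/f and 2956 in ob/ob GRmKO, a log2 ratio of ob/ob to lean of 0.66 and 0.57. Without Hspb6 and Hspb7 it was 810, 899, 777 and 883, with ratios of -0.06 (-0.09 to -0.03) and -0.03 (-0.06 to 0.00), so that the higher sum lay with these genes alone. The median of the 6 tested members was 0.15 in GRf/f and 0.20 in GRmKO, against 0.01 for all tested genes in each. Cryab (alpha-B-crystallin), a small heat shock protein outside the symbol rule, had 402 and 398 TMM CPM in the lean libraries and 635 and 547 in ob/ob GRf/f and GRmKO (log2 ratios 0.66 and 0.46). Cryab overlaps Hspb2 on the other strand, and whether the counting used strand is not given in the sources used here. Cryaa was listed at 0 in all libraries.

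Markers of slow fibers were higher in ob/ob than in lean mice, as were Hspb6, Hspb7 and Cryab. All 9 genes of a slow fiber list, among them Myh7, were called higher in ob/ob than in lean mice in both genotypes, with medians of 1.41 and 1.5, and their sum was 500 and 643 TMM CPM in the lean libraries and 1201 and 1764 in ob/ob GRf/f and GRmKO. The rise was not limited to slow fiber genes. Of a list of 10 general muscle fiber genes, 6 were above 0 in GRf/f and 8 in GRmKO, with medians of 0.31 and 0.50. Myh1, Myh2 and Mb were called higher in both genotypes, and Myh4 and Atp2a1 in GRmKO only. The sum of the list was 126718 and 117681 TMM CPM in lean GRf/f and GRmKO, and 147265 and 162871 in ob/ob GRf/f and GRmKO. Of all tested genes, 8.06% and 9.74% were called higher. The part of fiber type in the small heat shock values was not tested.

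**Figure D3:**
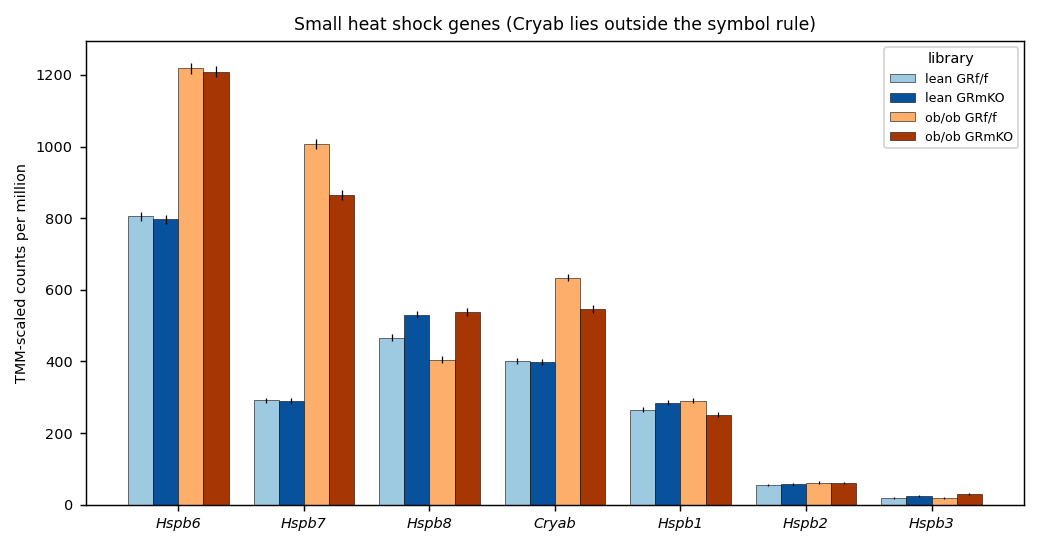
TMM CPM of the 6 tested small heat shock genes and of Cryab, by library (1 library per group); error bars are exact 95% counting intervals and do not show the spread between mice. Hspb7 (291 and 290 against 1007 and 864), Hspb6 (805 and 797 against 1219 and 1209) and Cryab (402 and 398 against 635 and 547) were higher in both ob/ob libraries, Hspb2 was slightly so (54.6 and 56.9 against 61.7 and 60.5), and Hspb8, Hspb1 and Hspb3 were not.

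In the Hsp90 class no member was called in any comparison on the TMM scale, where 4.41% to 11.9% of all tested genes were called in each direction of a comparison. Hsp90ab1, the constitutive cytosolic form, had 1037 TMM CPM in lean GRf/f, 1062 in lean GRmKO, 990 in ob/ob GRf/f and 1218 in ob/ob GRmKO. Hsp90aa1, the inducible form, was highest in lean GRf/f with 81.0, followed by 65.0 in lean GRmKO, 57.2 in ob/ob GRf/f and 51.7 in ob/ob GRmKO. Its log2 ratio of ob/ob to lean was -0.50 in GRf/f and -0.33 in GRmKO, and under plain CPM it was -0.62 and -0.54 and passed the rule in GRf/f. Hsp90b1 (Grp94), the form of the endoplasmic reticulum (ER), had 182, 177, 174 and 143, with the lowest level in ob/ob GRmKO.

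Of the Hsp70 class, the abundant members varied little. Hspa8, the constitutive cytosolic Hsp70, had 1056 TMM CPM in lean GRf/f, 944 in lean GRmKO, 941 in ob/ob GRf/f and 1033 in ob/ob GRmKO. Hspa9 (mortalin), the Hsp70 of mitochondria, had 337 and 302 in the lean libraries and 391 and 401 in the ob/ob libraries (log2 ratios 0.21 and 0.41). Hspa5 (BiP), that of the ER, had 208, 204, 263 and 201, so that ob/ob GRf/f was above the other 3 libraries.

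The stress-inducible pair Hspa1a and Hspa1b was highest in ob/ob GRf/f and lower in GRmKO than in GRf/f in both body types. Hspa1a had 28.2 TMM CPM in lean GRf/f, 24.1 in lean GRmKO, 40.2 in ob/ob GRf/f and 26.6 in ob/ob GRmKO. Hspa1b had 27.9, 17.5, 32.7 and 22.6. Reads of these copies are hard to assign, since 48.6% of the 100-base windows of the Hspa1a transcript and 49.9% of those of Hspa1b occur in another gene, mostly in each other. Their counts were therefore also summed, to 56.1, 41.5, 72.9 and 49.2. The log2 ratio of GRmKO to GRf/f of the sum was -0.44 in lean mice (-0.56 to -0.31) and -0.57 in ob/ob mice (-0.69 to -0.45), and neither passed the 1.5-fold rule. The 250 bases before the RefSeq starts of both genes, on the minus strand at chr17:34972157-34972406 and chr17:34959239-34959488, are shown because the copies are nearly the same here too. They differ at 3 of 250 bases, in capitals.
Hspa1a: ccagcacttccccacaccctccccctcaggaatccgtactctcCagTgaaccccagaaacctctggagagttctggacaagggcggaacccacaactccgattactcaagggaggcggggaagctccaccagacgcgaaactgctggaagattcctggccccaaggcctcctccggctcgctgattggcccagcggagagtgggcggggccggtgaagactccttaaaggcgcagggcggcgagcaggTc
Hspa1b: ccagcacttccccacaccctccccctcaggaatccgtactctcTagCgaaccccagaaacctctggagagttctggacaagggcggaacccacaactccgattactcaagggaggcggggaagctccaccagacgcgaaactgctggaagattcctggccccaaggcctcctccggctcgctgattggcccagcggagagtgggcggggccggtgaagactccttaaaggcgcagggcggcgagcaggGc

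Among the less abundant Hsp70 members, Hspa1l, which lies next to Hspa1a and is expressed mainly in testis, had 24.3 TMM CPM in lean GRf/f, 17.1 in lean GRmKO, 29.1 in ob/ob GRf/f and 29.7 in ob/ob GRmKO. It was lowest in lean GRmKO, and its log2 ratio of ob/ob to lean was 0.26 in GRf/f and 0.79 in GRmKO (0.60 to 0.98). Hspa12b, a distant Hsp70 relative of endothelium, had 36.6, 42.0, 32.4 and 24.9, with a log2 ratio of -0.18 in GRf/f and -0.76 in GRmKO (-0.92 to -0.60). Endothelial markers were lower in the same pair, 6 of 6 with a median of -0.50 and with Tek and Emcn called. Of all 11272 tested genes, 5507 were below 0 there and 11.9% were called lower. In GRf/f 0 of 6 markers were above 0 as well, with a median of -0.24 and no call, against 5740 of all tested genes above 0. The sum of these markers was 503, 557, 419 and 389 TMM CPM in the 4 libraries. Their part in the Hspa12b value was not tested.

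Hsph1 (Hsp110), a nucleotide exchange factor of cytosolic Hsp70, had 24.0 TMM CPM in lean GRf/f, 24.99 in lean GRmKO, 22.1 in ob/ob GRf/f and 11.1 in ob/ob GRmKO. The level in ob/ob GRmKO was less than that of any other library by about 2-fold, and the other 3 libraries were alike. The log2 ratio was -1.17 (-1.40 to -0.94) for ob/ob against lean in GRmKO and -0.99 (-1.24 to -0.76) for GRmKO against GRf/f in ob/ob mice, against -0.12 (-0.31 to 0.07) and 0.06 (-0.12 to 0.23) in the other pairs. Both larger ratios rest on the same library. Hsph1 has 7 annotated coding transcripts, and the deposited value may cover 1 of them. Its near relatives Hspa4 (105, 101, 122 and 137) and Hspa4l (8.59, 6.87, 6.96 and 7.86), which exchange nucleotides as well, did not have their lowest level in ob/ob GRmKO.

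The mitochondrial chaperonin subunits diverged in ob/ob mice. Hspd1 (Hsp60) had 120 TMM CPM in lean GRf/f, 106 in lean GRmKO, 122 in ob/ob GRf/f and 125 in ob/ob GRmKO. Its partner Hspe1 (Hsp10) had 42.9 and 44.7 in the lean libraries and 28.7 and 31.6 in the ob/ob libraries, and both ob/ob libraries were below both lean ones. The log2 ratio of Hspe1 was -0.58 in GRf/f (-0.73 to -0.43) and -0.50 in GRmKO (-0.65 to -0.35), short of the 1.5-fold rule in each, while under plain CPM it was -0.69 and -0.71 and passed in both. Hspd1 had 0.03 and 0.24. The genes overlap head to head, at chr1:55077835-55088243 on the minus strand and chr1:55088132-55091307 on the plus strand.

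The promoter of Hspe1 also held the heat shock element, the site of Hsf1, searched as GAANNTTCNNGAA on both strands. Of the 58 members with a promoter sequence, 3 held an exact match (5.17%), against 0.603% of all 32851 promoters. Only exact matches to these letters in the window were counted, so a promoter without one may hold a looser form of the element. The matches are in Hspe1, Hsph1 and Dnajb6, and 30 bases around each are shown with the match in capitals. They lie at chr1:55088053-55088082 on the plus strand, chr5:149636287-149636316 on the minus strand and chr5:29735844-29735873 on the plus strand.
Hspe1: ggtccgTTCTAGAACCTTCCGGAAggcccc
Hsph1: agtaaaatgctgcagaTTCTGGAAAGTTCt
Dnajb6: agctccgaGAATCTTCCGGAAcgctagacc
Hspe1 was lower in both ob/ob libraries, Hsph1 was lower in ob/ob GRmKO only, and Dnajb6, which suppresses protein aggregation and is mutated in a muscular dystrophy, had 68.9, 70.3, 76.4 and 94.8 TMM CPM, highest in ob/ob GRmKO.

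Class A J-domain proteins are the general partners of cytosolic and mitochondrial Hsp70. Dnaja2 was the most abundant, with 195, 173, 178 and 192 TMM CPM. Dnaja1 had 85.4 in lean GRf/f, 59.7 in lean GRmKO, 52.7 in ob/ob GRf/f and 60.03 in ob/ob GRmKO. Lean GRf/f was thus above the other 3 libraries, which were alike, and the log2 ratio of ob/ob to lean was -0.70 in GRf/f (-0.81 to -0.59) and 0.01 in GRmKO (-0.11 to 0.12). Dnaja4 had 64.2, 71.6, 88.9 and 113 in the same order, higher in both ob/ob libraries, with log2 ratios of 0.47 and 0.65 (0.56 to 0.75). Dnaja3 (Tid1), the mitochondrial member, had 80.7, 63.7, 86.7 and 89.5, lowest in lean GRmKO.

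Class B held the most abundant J-domain gene, Dnajb5, with 248 TMM CPM in lean GRf/f, 200 in lean GRmKO, 275 in ob/ob GRf/f and 189 in ob/ob GRmKO. It was lower in GRmKO than in GRf/f in both pairs, with log2 ratios of -0.31 and -0.54 (-0.60 to -0.48), which did not pass the rule. Dnajb4, a cytosolic partner of Hsp70, had 63.5, 58.5, 95.1 and 77.0, higher in both ob/ob libraries by 0.58 (just under the rule) and 0.40. Dnajb12, an ER membrane protein that serves protein degradation, had 35.4, 24.98, 27.1 and 39.1, with log2 ratios of ob/ob to lean of -0.38 (-0.54 to -0.22) in GRf/f and 0.65 (0.49 to 0.81) in GRmKO, in opposite directions. The difference between the pairs was not tested.

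Class C proteins share little beyond the J-domain. Of the most abundant, Dnajc7, which links Hsp70 to Hsp90, had 75.1, 67.7, 87.0 and 97.6 TMM CPM in lean GRf/f, lean GRmKO, ob/ob GRf/f and ob/ob GRmKO, and Dnajc27 had 55.1, 51.1, 63.7 and 72.9. Both were lowest in lean GRmKO and highest in ob/ob GRmKO. Dnajc3, an ER co-chaperone of Hspa5, had 61.8, 55.2, 66.1 and 53.2. Dnajc15, of the mitochondrial inner membrane, had 34.3 and 32.7 in the lean and 22.4 and 23.2 in the ob/ob libraries, and its log2 ratio passed the rule in GRf/f (-0.62, -0.79 to -0.45) and not in GRmKO (-0.50, -0.67 to -0.32), while under plain CPM it was -0.73 and -0.70 and passed in both. Dnajc19, of the mitochondrial import motor, was lower in ob/ob as well, with 45.8, 49.3, 33.1 and 39.0. The lowest tested member was Dnajc24, needed for the diphthamide modification of elongation factor 2, with 4.27, 2.51, 2.32 and 2.89. Its lean GRf/f level was above the rest, and its counting intervals were wide (log2 ratio -0.88, -1.41 to -0.35, for ob/ob against lean in GRf/f).

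Counted over the members, ob/ob against lean in GRf/f gave 2 of 62 higher (Hspb6 and Hspb7, 3.23%) against 8.06% of all tested genes, and 3 lower (Dnaja1, Dnajc15 and Dnajc24, 4.84%) against 8.06%. In GRmKO 5 were higher (Dnaja4, Dnajb12, Hspa1l, Hspb6 and Hspb7, 8.06%) against 9.74%, and 2 lower (Hspa12b and Hsph1, 3.23%) against 11.9%. Each share of members was below that of all tested genes, but each rests on 2 to 5 members, and the difference was not tested. The members' median was 0.08 in GRf/f and 0.12 in GRmKO, against 0.01 in all tested genes. Plain CPM shifted the median of all tested genes to -0.11 in GRf/f and -0.20 in GRmKO and turned the split of members to 1 higher and 6 lower, and to 2 higher and 5 lower. The members' own medians under plain CPM were -0.03 and -0.08, each above that of all tested genes. These pairs share no library, and 25 members (40.3%) were above 0 in both and 13 (21%) below 0 in both, against 35.9% and 33.8% of all tested genes.

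**Figure D4:**
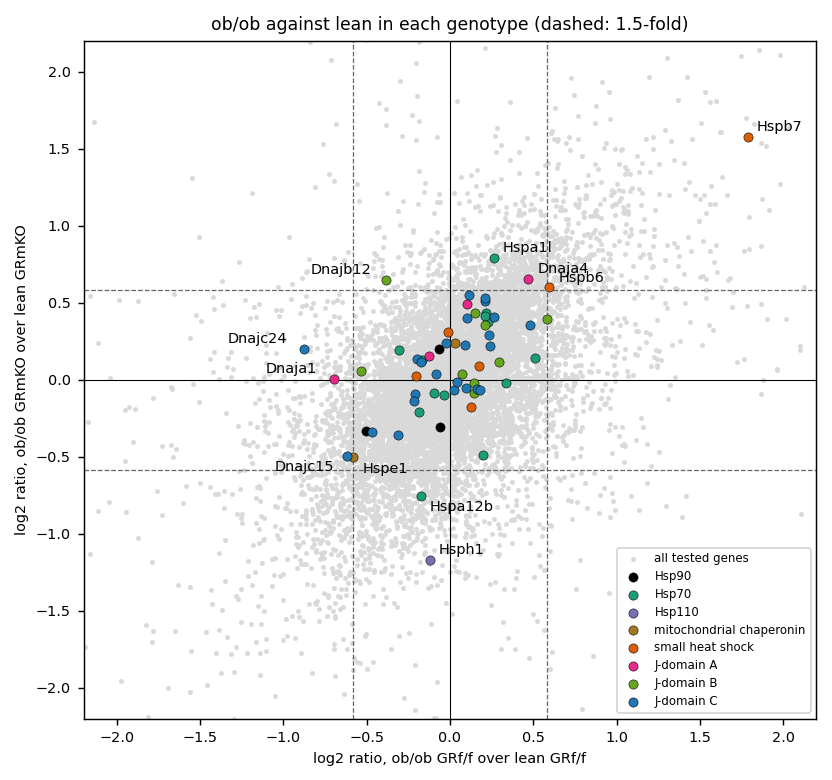
Log2 ratio of ob/ob to lean in GRf/f (x axis) against that in GRmKO (y axis), both on the TMM scale, for the members by class and for all tested genes within the axes (gray); dashed lines mark 1.5-fold. Hspb7 (1.79 and 1.58) and Hspb6 (0.60 and 0.60) pass both lines, Hsph1 lies low only on the y axis (-1.17), and Dnaja1 (-0.70) and Dnajc24 (-0.88) only on the x axis.

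GRmKO against GRf/f in lean mice gave 0 of 62 members higher, against 4.41% of all tested genes, and 2 lower (Hspa1b and Dnajc24, 3.23%) against 4.52%. The Hspa1b ratio was -0.68 (-0.87 to -0.49) and that of Dnajc24 -0.76 (-1.27 to -0.26). Most members were slightly lower, 42 of 62 below 0 with a median of -0.10, against 5824 of 11272 and a median of -0.01 for all tested genes. By class, 10 of 13 Hsp70 members and 27 of 37 J-domain members were below 0, while 4 of 6 small heat shock members and Hsph1 were above 0. This pair uses the lean GRf/f library with its spermatid transcripts, and the part of testis RNA in these ratios was not tested. In ob/ob mice the members were even, with 31 above and 31 below 0 and a median of 0.01 (all tested genes 0.00). There 1 member was called higher (Hspb3, 1.61%; log2 ratio 0.72, 0.53 to 0.91) against 5.33%, and 2 lower (Hspa1a and Hsph1, 3.23%) against 7.31%. The Hspa1a ratio was -0.60 (-0.76 to -0.43). No member was called higher in both pairs, against 1.02% of all tested genes, or lower in both, against 1.5%.

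**Figure D5:**
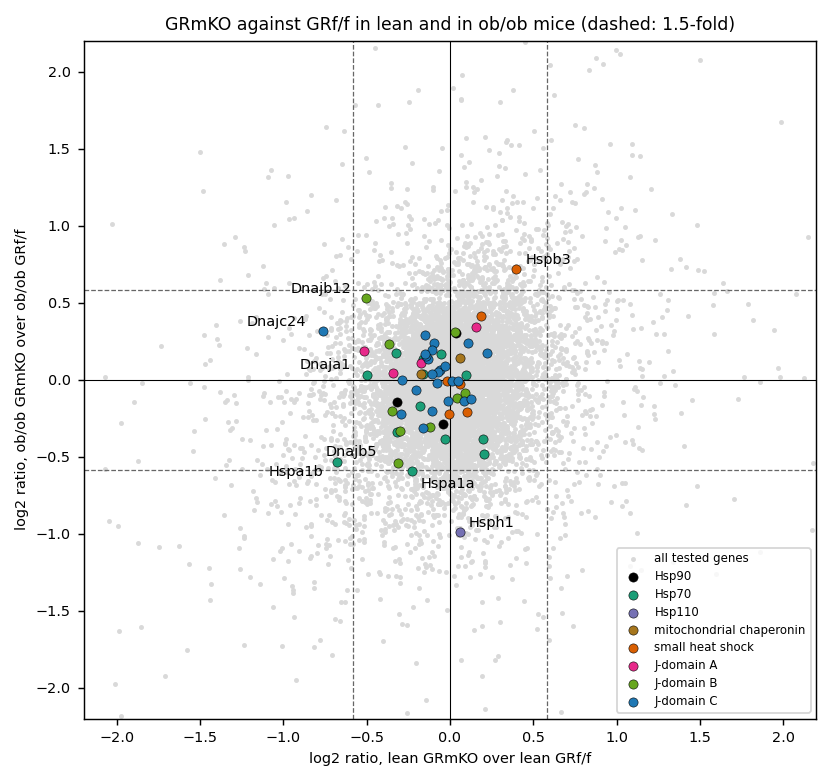
Log2 ratio of GRmKO to GRf/f in lean mice (x axis) against that in ob/ob mice (y axis), both on the TMM scale, for the members by class and for all tested genes within the axes (gray); dashed lines mark 1.5-fold. No member passes the same line in both pairs; Hspa1b is at -0.68 and -0.53, Hspa1a at -0.23 and -0.60, Hspb3 at 0.40 and 0.72, and Hsph1 at 0.06 and -0.99.

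Partners of the chaperones were described from lists by function. Of 22 co-chaperones of Hsp70 and Hsp90, Ppid was called lower in ob/ob GRf/f against lean GRf/f, Fkbp5 lower in GRmKO in both pairs, and Bag2 higher in ob/ob GRmKO against ob/ob GRf/f. Fkbp5, a Hsp90 co-chaperone of the GR complex and a textbook GR target, had 85.6 TMM CPM in lean GRf/f, 21.2 in lean GRmKO, 110 in ob/ob GRf/f and 28.0 in ob/ob GRmKO (log2 ratios of GRmKO to GRf/f -2.01 and -1.98). Both GRmKO libraries were below both GRf/f ones, a separation larger than that of any member. Bag3, the partner of Hspb8, had 243 and 237 in the lean and 314 and 324 in the ob/ob libraries (0.37 and 0.45). None of 4 tested heat shock factors was called. Hsf1 had 37.4, 33.8, 30.9 and 32.2. The 7 tested subunits of the cytosolic chaperonin and 7 mitochondrial partners had no call in any comparison. A list of 10 nucleotide exchange and ER partners had calls. For ob/ob against lean in GRmKO 0 of 10 were above 0 (median -0.36), and Sdf2l1 and Creld2 were called lower. For GRmKO against GRf/f in ob/ob mice 1 was above 0 (median -0.31), and Hyou1 and Creld2 were called lower. The other pairs had no call, with 4 (ob/ob against lean in GRf/f) and 6 (GRmKO in lean mice) above 0. In each direction of a comparison, 4.41% to 11.9% of all tested genes were called.

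Of a textbook list of 10 ER stress chaperones, 6 of them members, 10 of 10 were below 0 for GRmKO against GRf/f in ob/ob mice (median -0.30), and 9 of 10 for ob/ob against lean in GRmKO, with a median of -0.08. Of all 11272 tested genes, 5597 and 5507 were below 0 in these comparisons. In lean mice 5 of 10 were above 0 in GRmKO, and 8 of 10 were above 0 for ob/ob against lean in GRf/f. Here 5446 and 5740 of all tested genes were above 0. Sdf2l1 was called lower for ob/ob against lean in GRmKO. The call in ob/ob mice was Hyou1, the large Hsp70 relative of the ER, with 33.9, 26.6, 41.3 and 23.1 TMM CPM (log2 ratio -0.84). Among members, Hspa5 had a log2 ratio of -0.39 (-0.45 to -0.33) and Hsp90b1 of -0.29 (-0.36 to -0.22), neither past the rule. The lowest library was lean GRmKO for Dnajb9 (56.1, 45.6, 58.98 and 46.8) and lean GRf/f for Dnajb11 (40.7, 41.9, 45.0 and 41.4) and Dnajc10 (30.7, 32.5, 34.3 and 31.2). Fibroblast and collagen markers were lower in the same pair, 5 of 5 with a median of -0.81 and sums of 10761 in ob/ob GRf/f and 5952 in ob/ob GRmKO, and macrophage markers were 7 of 7 below 0 with a median of -0.58 and sums of 315 and 232. Their part in the ER values was not tested.

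Of a textbook list of 18 Hsf1 target genes, 13 of them members, 7 were above 0 for ob/ob against lean in GRf/f with a median of -0.12, and 12 in GRmKO with a median of 0.10. For GRmKO against GRf/f, 4 were above 0 in lean mice with a median of -0.14 and 10 in ob/ob mice, where the median was 0.02. The calls were Cryab higher and Dnaja1 lower in the first comparison, Hsph1 lower in the second, Hspa1b lower in the third, and Hspa1a and Hsph1 lower in the fourth, and no gene of the list was called in the same direction in both pairs of a contrast. Of 12 immediate early genes, which many stimuli induce within minutes, 4 were called higher and 2 lower for ob/ob against lean in GRf/f, 2 higher and 0 lower in GRmKO, 5 higher and 1 lower for GRmKO against GRf/f in lean mice, and 1 higher and 1 lower in ob/ob mice. In the same order, 8.06%, 9.74%, 4.41% and 5.33% of all tested genes were called higher, and 8.06%, 11.9%, 4.52% and 7.31% lower. Fos was lowest in lean GRf/f, with 10.9 TMM CPM against 45.8, 47.3 and 69.7 in lean GRmKO, ob/ob GRf/f and ob/ob GRmKO. Nr4a1 was highest there, with 323 against 174, 219 and 161. Their part in the levels of the inducible members was not tested.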

How the data were processed

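Gene expression in gastrocnemius muscle was measured by paired-end RNA-seq, with 1 library of RNA pooled from 3 mice in each of 4 groups. The authors quantified reads with Salmon (1.2.1), with mm10 named as the build, and summarized transcripts to gene names in R (3.5.0). The paper describes a summary to genes by tximport, with counts derived from length-scaled abundances. Transcript IDs were then converted to gene names, and of entries with the same name the one with the largest total was kept. The deposited values are expected counts (estimated counts that need not be whole), not normalized between libraries, and each gene name carries 1 transcript ID. Of 8197 tested names with 2 or more coding transcripts, the listed one was the longest in 62.0%. The paper describes a summary to genes, but with 1 ID per name a value may still cover 1 transcript rather than the whole gene. This was not settled here, and it touches 49 of the 73 members. The 24 with 1 coding transcript include Hspb6, Hspb7, Hspe1, Dnajc15, Hspa1a and Hspa1b.

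Expected counts were rounded for TMM factors (edgeR 4.0.16 in R 4.3.3), which were 0.933 to 1.08, and unrounded counts were divided by the scaled totals. Exact counting intervals were computed with scipy 1.17.1. The scaling and the intervals were tested on simulated data. The study's caller for data without replicates, NOISeq, was not used, since its probabilities rest on simulated replicates, and a fold of 1.5 was used in its place, with a mean of at least 50 expected counts in place of the study's filter of a count above 0 in all libraries. Alternatives were plain CPM, DESeq2 (1.42.0) size factors, upper quartile factors, CPM without the 50 most abundant genes in the total, the study's filter, at least 10 counts in every library, no filter beyond a count above 0 in the pair, and a fold of 2.

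The members, lists and rules were chosen with earlier results of these data known. Genes were named by a rule: every Hsp90, Hsp110 and mitochondrial chaperonin gene, the 3 most abundant members of each other class, members called in both pairs of a contrast, the 3 largest calls in each comparison and direction, Hspa1a, Hspa1b, Hspa5 and Hspa9, and of the partner lists those called in both pairs, Cryab, Hsf1 and Bag3. Other genes named were chosen after their values were seen. The values of 1 member, which was not tested, are not reported here. Gene positions are from GENCODE M21 (GRCm38), and promoter sequences from RefSeq (GRCm38.p6), which matched 58 of the 73 members. Muscle, adipocyte and erythroid marker lists were used to check the tissue. All 10 muscle fiber markers were present in every library, with sums of 117681 to 162871 TMM CPM. Of 8 adipocyte markers, 6 were called lower with GRmKO in lean and 5 in ob/ob mice, against 4.52% and 7.31% of all tested genes. All 5 tested erythroid markers were called lower in ob/ob in both genotypes, against 3.75% of all tested genes. The brain and testis list is given with the library that stood apart. Its brain genes, Snap25 and Syt1, were at 0.19 TMM CPM or below.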

Additional observations from a re-analysis of the deposited data

Results flagged for a closer look

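In 5 cases the change of a member had opposite signs in the pairs of a contrast, with a call in at least 1 of them. Each rests on 1 library against another, and the differences were not tested. For ob/ob against lean, the log2 ratio in GRmKO exceeded that in GRf/f by 0.70 for Dnaja1, by 1.03 for Dnajb12 and by 1.08 for Dnajc24. For GRmKO against GRf/f, the log2 ratio in ob/ob mice minus that in lean mice was 1.08 for Dnajc24 and -1.05 for Hsph1. In 4 of these the smaller change had a counting interval that spans 0, at 0.01 (-0.11 to 0.12) for Dnaja1 and 0.20 (-0.38 to 0.75) for Dnajc24 in GRmKO, 0.32 (-0.29 to 0.89) for Dnajc24 in ob/ob mice and 0.06 (-0.12 to 0.23) for Hsph1 in lean mice. Under plain CPM the ob/ob against lean ratios of Dnaja1 (-0.81 and -0.20) and Dnajc24 (-0.99 and -0.0044) had the same sign. The values of Dnajc24 are the same difference of 4 libraries read in both ways.

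Members that entered no comparison had a signal in lean GRf/f, beside the spermatid genes found in that library. The expected counts there were 58.9 for Dnajb3, 48.6 for Hspb9, 32.9 for Dnajb8, 10 for Dnajc5g and 4.01 for Dnajc5b, against at most 4.01, 2.01, 2, 2 and 0 in the other libraries.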

How the results depend on the processing

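No replicate block was fitted, since each group is 1 library and the labels carry no replicate numbers, and no library could be left out of a group. An additive fit of body type and genotype over the 4 libraries, which would leave 1 residual degree of freedom, was not run. The 17 single calls of members kept their direction under the 4 other scalings, and 13 (plain CPM), 17 (DESeq2 size factors), 15 (upper quartile) and 13 (without the 50 most abundant genes) stayed at least 1.5-fold. Of 96 counts of members under the 8 alternatives, 62 were within 1.5 times the value reported. Members called higher in ob/ob GRf/f were 1 under plain CPM, the upper quartile, the total without the 50 most abundant genes and a fold of 2, and members called lower there were 6, 4, 5 and 0, with 5 under the study's filter and 6 with a count above 0 in the pair. In ob/ob GRmKO against lean, higher calls were 2 under plain CPM and without the 50 most abundant genes and 1 at a fold of 2, and lower calls 5, 5 and 1. For GRmKO against GRf/f in lean mice, a filter on counts above 0, in all libraries or in the pair, gave 1 higher (Dnajc6) and 5 lower, and a fold of 2 gave 0 lower. In ob/ob mice the higher calls were 2, 2 and 3 under the study's filter, at least 10 counts and counts above 0 in the pair, and 0 at a fold of 2, and the lower calls 1 under the upper quartile and 0 at a fold of 2. Members called in both pairs of ob/ob against lean were 1 higher (Hspb7) under plain CPM, the upper quartile, the total without the 50 most abundant genes and a fold of 2, and 2 lower under plain CPM (Dnajc15 and Hspe1) and without the 50 most abundant genes. For GRmKO against GRf/f in both pairs, 1 was lower (Dnajb13, with at most 6.09 counts) under the filters on counts above 0.

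All 128 class medians moved by less than the spread of the members in their class or, for Hsp110, stayed within its counting interval. A scaling moves all genes of a comparison by the same amount, so this rule could hardly fail. Signs did change under plain CPM for ob/ob against lean in GRmKO. There the median went from 0.13 to -0.08 for Hsp70, 0.20 to -0.01 for small heat shock, 0.11 to -0.09 for J-domain class B and 0.13 to -0.08 for class C. The other classes kept their sign in that comparison. Of 60 class sums, 32 stayed within counting error and 28 did not. Values are given in the order ob/ob against lean in GRf/f and in GRmKO, then GRmKO against GRf/f in lean and in ob/ob mice. Without its most abundant gene, the log2 ratio of the Hsp90 sum was -0.18, -0.32, -0.12 and -0.25, of the Hsp70 sum 0.22, 0.22, -0.11 and -0.12, and of the mitochondrial chaperonin sum -0.58, -0.50, 0.060 and 0.14. For the small heat shock sum it was 0.70 in the first and 0.11 in the third comparison, for J-domain class A -0.012 and 0.43 in the first and second, for class B 0.28, -0.16 and -0.030 in the last 3, and for class C 0.11 in the second. Counts per length gave -0.26 and -0.14 for the chaperonin and 0.50 and 0.43 for the small heat shock sum in the first and second comparisons, and -0.068, 0.051, -0.041 and 0.077 for class C. The members that leave or gain weight in these sums make up the change.

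The main limits are the single library of pooled RNA per group, the spermatid transcripts in lean GRf/f, which enter 2 of the 4 comparisons, and the listed transcript that a value may stand for. At these depths counting error is small for most tested members, and it is widest for Dnajc24, at 2.32 to 4.27 TMM CPM.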
